A study of Mus musculus with 6 samples.

Results

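The genes described here are 8 surface marker genes that are used to sort or recognise blood stem cells and their nearest progeny: Procr, Slamf1, Cd48, Ly9, Cd9, Cd27, Pdzk1ip1 and Trpc6. Every probe set annotated to 1 of these genes alone was taken, which gave 11 probe sets of 8 genes among 34945 probe sets with a single gene symbol, or 18193 genes. Expression was read on 6 Affymetrix arrays of LSK cells, the lineage-negative, Kit-positive, Sca1-positive cells of mouse bone marrow, from mice 10 to 14 weeks old. Each of 3 LSK fractions, CD34-Flt3-, CD34+Flt3- and CD34+Flt3hi, was hybridised on 2 arrays, called replicates 1 and 2. No allele, treatment or strain is named for any group, and the sources used here do not say whether the arrays came from separate mice or pools, so p-values measure only the spread between these arrays. Sorting used CD34, Flt3, Kit, Sca1 and lineage antigens, and none of the 8 genes was a sort antigen.

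Blood stem cells divide rarely and sit in the CD34-Flt3- fraction of adult mouse LSK cells, and cells that gain CD34 and then Flt3 have less capacity for self-renewal. SLAM family receptors are small immunoglobulin-like proteins that bind each other between cells: stem cells carry CD150 (Slamf1) and lack CD48, and early progenitors lose CD150 and gain CD48 and CD229 (Ly9). EPCR (Procr) is another widely used stem cell marker, and CD27 and CD9 have served to separate LSK cells. In bulk samples, fewer cells of a type and less RNA per cell cannot be told apart.

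On the log2 scale the median array signal was close on all arrays, with median intensities of 29.7 to 31.4 in linear units. The sort antigen genes followed the gates: Cd34 rose from 8.78 and 9.45 in CD34-Flt3- to 11.35 and 11.34 in CD34+Flt3hi arrays, and Flt3 from 7.65 and 9.16 to 12.01 and 11.75. Kit, the receptor by which all fractions were sorted, read 8.82 to 10.99, well above the background of log2 4.50 set from bacterial control probe sets. Replicates correlated across genes at r = 0.969, 0.981 and 0.990 in the order CD34-Flt3-, CD34+Flt3- and CD34+Flt3hi. The ratio of 3' to 5' Gapdh control signal, a sign of RNA quality, was 5.04 and 6.34 in CD34-Flt3- cells and 6.59 to 8.42 in the other fractions. The same ratio for actin did not separate the fractions, at 3.58 and 5.55 in CD34-Flt3- cells and 3.25 to 4.44 in the others. The array's 3' actin control was dimmer in CD34-Flt3- cells (7693 and 7368 linear units) than in the other fractions (12426 to 12963). The part of these readings in the differences below was not tested. Replicate 2 of all groups shares a code in the sample titles, replicate 1 of CD34+Flt3- and of CD34+Flt3hi shares another, and replicate 1 of CD34-Flt3- has its own.

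Between CD34-Flt3- and CD34+Flt3hi cells all 8 genes passed the test (limma, Benjamini-Hochberg adjusted p below 0.05 over 18193 genes): Procr, Slamf1, Cd9, Pdzk1ip1 and Trpc6 fell, and Cd48, Ly9 and Cd27 rose. Among all genes 6.11% were called in that comparison, 2.62% higher and 3.5% lower. In the step from CD34-Flt3- to CD34+Flt3- cells 5 members were called, against 2.1% of all genes: Cd48 rose (0.77% of all genes did) and Procr, Slamf1, Pdzk1ip1 and Trpc6 fell (1.33% of all genes did). In the step from CD34+Flt3- to CD34+Flt3hi cells 2 were called, Pdzk1ip1 and Trpc6, both lower, where 0.61% of all genes were called, 0.385% higher and 0.225% lower. The arrays of the groups compared did not overlap for 7 members in the first step, 8 in the second and 8 over the whole path, where 44.2%, 40.4% and 47.9% of all genes did not overlap. The median absolute log2 difference of the members was 1.82, 1.09 and 3.01 in the same order, and that of all genes 0.27, 0.19 and 0.26. The members are known markers of such fractions, so their counts are a description.

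**Figure D1:**
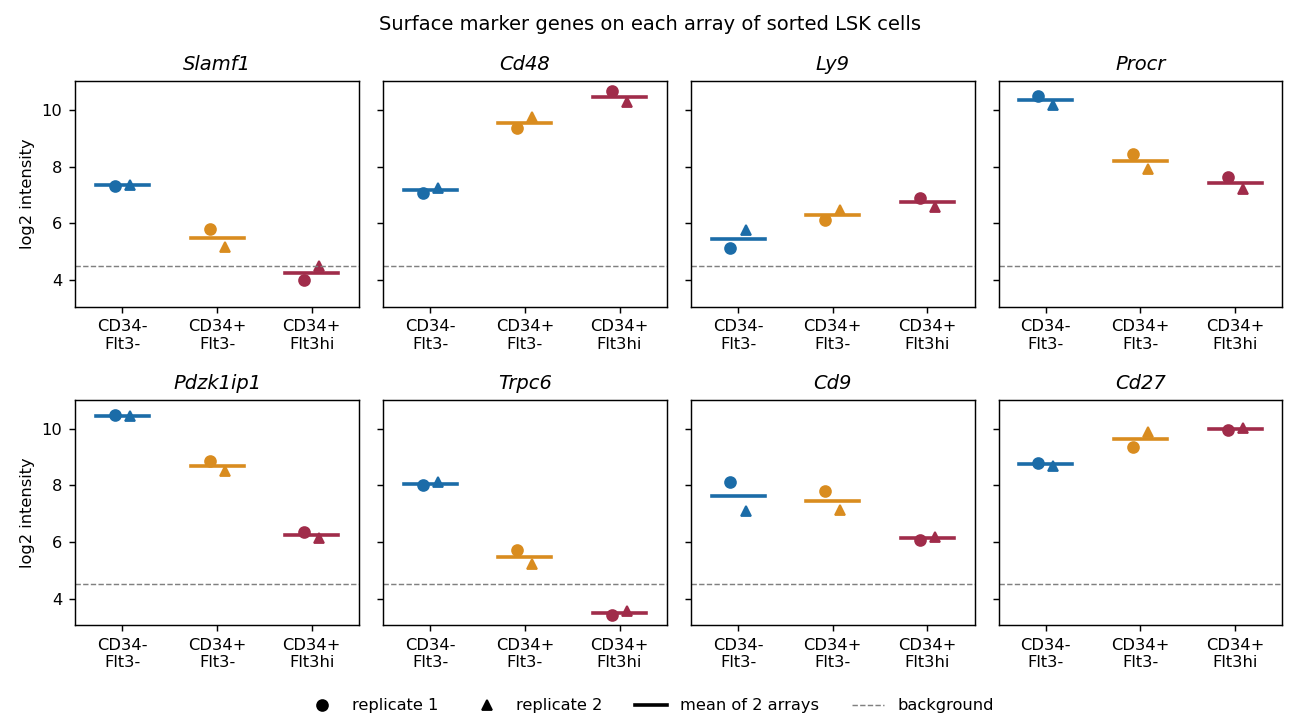
Log2 intensity of the 8 marker genes on each of the 6 arrays, 1 panel a gene, with the 3 sorted groups on the horizontal axis, points for arrays, bars for group means and a dashed line at the background of log2 4.50. Procr, Slamf1, Pdzk1ip1 and Trpc6 step down from left to right, Cd48, Ly9 and Cd27 step up, and Cd9 overlaps between the CD34-Flt3- and CD34+Flt3- arrays.

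Of the SLAM receptors, Slamf1 (Entrez gene 27218) encodes CD150, which binds itself on other cells. Its brightest probe set read log2 7.33 and 7.36 on the CD34-Flt3- arrays, 5.80 and 5.17 on CD34+Flt3- and 3.98 and 4.50 on CD34+Flt3hi, or 161 and 164, 55.7 and 35.9, and 15.8 and 22.6 in linear units. The 3 groups did not overlap, and the CD34+Flt3hi arrays lay below background. Slamf1 fell by 1.86 ± 0.31 (SE) on the log2 scale in the first step, 3.63-fold (limma adjusted p = 0.0205). In the second step the difference was -1.24 (95% confidence interval -1.94 to -0.55; limma adjusted p = 0.184), at least 1.98-fold. Here and below "at least" means that the dim group lay below background and its values were set to it. Over the whole path Slamf1 fell by 3.10 on the log2 scale, at least 7.18-fold (limma adjusted p = 0.000548). The first-step call was lost in settings that moved its adjusted p to 0.0524 to 0.0547 (its 3 probe sets averaged, a fit without the CD34+Flt3hi arrays, or CD34+Flt3- replicate 1 or either CD34+Flt3hi array left out), and without CD34+Flt3- replicate 2. With the 3 probe sets averaged the differences were -1.20, -0.54 and -1.74 in the first step, the second and the path.

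Cd48 (Entrez gene 12506) encodes the lipid-anchored ligand of CD244 and ran the opposite way. It read log2 7.07 and 7.26 on the CD34-Flt3- arrays, 9.36 and 9.75 on CD34+Flt3- and 10.67 and 10.30 on CD34+Flt3hi, in linear units 135 and 153, 658 and 859, and 1628 and 1260. No array of a later group lay below an array of an earlier one. Cd48 rose by 2.39 ± 0.25 (SE) in the first step, 5.24-fold, the 27th largest of all rises (limma adjusted p = 0.00648). The second difference was 0.93 (95% confidence interval 0.37 to 1.49; limma adjusted p = 0.239). Between the ends of the path Cd48 rose 9.99-fold (limma adjusted p = 0.000161). Cd48 was well above background in CD34-Flt3- cells, the fraction richest in stem cells, which lack its protein at the surface.

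Ly9 (Entrez gene 17085), the self-binding receptor CD229, changed least steeply of the SLAM genes named here as members. It read log2 5.14 and 5.78 in CD34-Flt3-, 6.11 and 6.47 in CD34+Flt3- and 6.91 and 6.59 in CD34+Flt3hi cells. Each group lay above the one before it, but neighbouring groups did not differ by the test, with differences of 0.82 (95% confidence interval 0.12 to 1.52; limma adjusted p = 0.22) and 0.46 (-0.23 to 1.16; limma adjusted p = 0.909). Across the path it rose by 1.29, 2.44-fold (limma adjusted p = 0.0396), a call lost in 8 of 20 alternative settings, with adjusted p up to 0.352.

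Slamf1 and Cd48 are close neighbours. Among genes listed as protein-coding in the RefSeq annotation of GRCm38.p6, Cd244a, Ly9, Slamf7, Cd48, Slamf1, Cd84 and Slamf6 follow each other. Of the genes so listed only Tma7-ps, which was not measured, lies between Cd48 and Slamf1. Along this run of 7 receptor genes Slamf1 fell, and Cd244a, Ly9 and Cd48 rose. Cd244a, the receptor for CD48, read log2 4.26 and 4.62, then 5.41 and 6.23, then 7.33 and 7.17, and rose by 2.81 ± 0.32 (SE) over the path, at least 6.47-fold (limma adjusted p = 0.00117), so ligand and receptor transcripts rose together. Cd84 lay beyond Slamf1 and read 7.16 and 7.19 in CD34-Flt3- cells against 6.44 and 5.90 in CD34+Flt3hi, a difference of -1.01 that did not pass (limma adjusted p = 0.0958). Slamf7 stayed near background with a path difference of -0.04, and Slamf6 had one of 0.48 (limma adjusted p = 0.464).

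**Figure D2:**
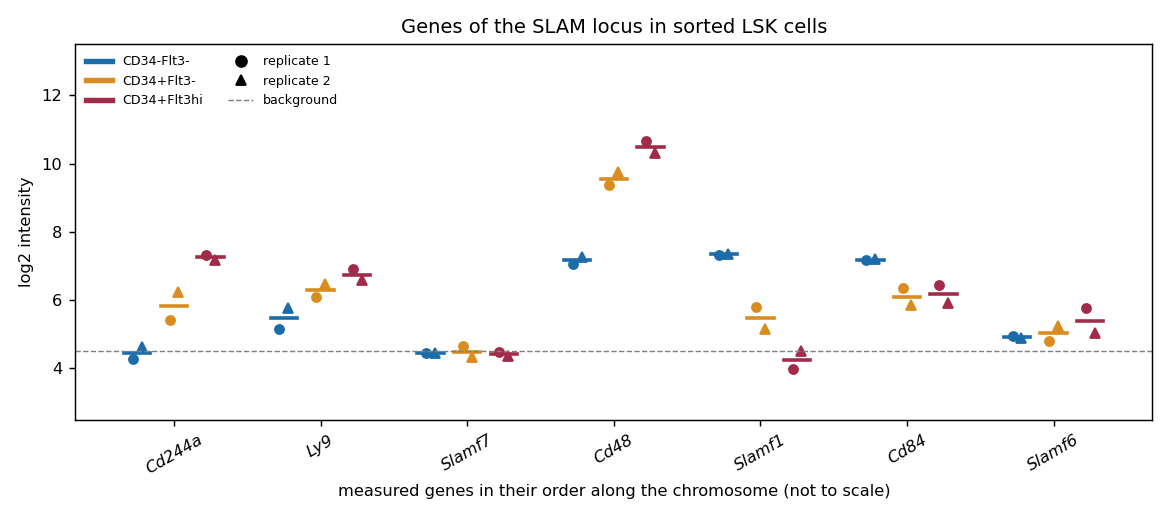
Log2 intensities of the 7 SLAM receptor genes in chromosomal order, with the 3 groups in colour, points for arrays, bars for means and the background as a dashed line; the horizontal axis gives order and not distance. Cd244a, Ly9 and Cd48 are highest in CD34+Flt3hi cells, and the adjacent Slamf1 is highest in CD34-Flt3- cells.

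Because Slamf1 and Cd48 are neighbours with opposite patterns, and Pdzk1ip1 and Trpc6 fell with Slamf1, the 250 bases upstream of their RefSeq start sites are shown (GRCm38.p6, strand of the gene, 5' to 3'). The windows lie at chr1:171766882-171767131, chr1:171681742-171681991, chr4:115088458-115088707 and chr9:8543892-8544141, all on the plus strand. Capitals mark matches, on either strand, to short motifs of factor families active in blood stem cells: GATAA (GATA factors), GGAAGT (ETS), TGTGGT (RUNX), CAGCTG (E-box) and TGACAG (MEIS), none of which overlapped another in these windows.
Slamf1: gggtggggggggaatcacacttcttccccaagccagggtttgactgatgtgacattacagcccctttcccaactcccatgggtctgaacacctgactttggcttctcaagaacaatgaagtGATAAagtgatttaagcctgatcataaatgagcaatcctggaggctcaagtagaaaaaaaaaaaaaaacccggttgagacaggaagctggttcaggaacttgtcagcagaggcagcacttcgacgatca
Cd48: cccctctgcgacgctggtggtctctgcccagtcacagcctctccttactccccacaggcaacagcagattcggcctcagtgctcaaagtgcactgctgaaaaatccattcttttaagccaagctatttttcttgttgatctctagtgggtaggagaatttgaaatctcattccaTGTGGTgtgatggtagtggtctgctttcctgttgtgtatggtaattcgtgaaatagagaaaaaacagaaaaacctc
Pdzk1ip1: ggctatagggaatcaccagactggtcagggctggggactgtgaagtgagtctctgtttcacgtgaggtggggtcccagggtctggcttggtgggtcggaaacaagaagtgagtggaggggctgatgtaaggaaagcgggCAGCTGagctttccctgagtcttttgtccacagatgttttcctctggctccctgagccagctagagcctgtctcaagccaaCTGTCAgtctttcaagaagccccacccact
Trpc6: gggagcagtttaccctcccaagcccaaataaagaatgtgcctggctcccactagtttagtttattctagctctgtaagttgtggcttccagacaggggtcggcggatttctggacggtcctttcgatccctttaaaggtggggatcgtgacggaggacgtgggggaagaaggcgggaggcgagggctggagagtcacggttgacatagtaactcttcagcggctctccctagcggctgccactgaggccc
Slamf1 holds a GATA match whose first base is at position -129 from the start, Cd48 a RUNX match at -76, and Pdzk1ip1 an E-box at -111 and a MEIS match on the opposite strand at -30. The Trpc6 window holds none of these letters. Of the other members, Procr and Cd9 have an E-box at -34 and -25, Cd27 has no match, and windows were matched for 7 of the 8 genes, without Ly9. Among 32851 mouse windows of the same length the motifs occur in 22.6% (GATA), 19.7% (ETS), 14% (RUNX), 13% (E-box) and 15.9% (MEIS), so such matches are common and describe letters only.

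Procr (Entrez gene 19124) encodes the endothelial protein C receptor, which presents protein C for activation on vessel walls and marks stem cells in marrow. It read log2 10.51 and 10.18 on the CD34-Flt3- arrays, 8.47 and 7.93 on CD34+Flt3- and 7.65 and 7.20 on CD34+Flt3hi, in linear units 1456 and 1164, 354 and 244, and 201 and 147. The groups did not overlap, and the gap was widest between the CD34-Flt3- arrays and the rest. Procr fell by 2.15 ± 0.29 (SE) in the first step, 4.43-fold (limma adjusted p = 0.0141). In the second the difference was -0.77 (95% confidence interval -1.41 to -0.13; limma adjusted p = 0.58). Across the path it fell 7.57-fold (limma adjusted p = 0.000548). Its probe set carries the array maker's s suffix, which marks probes shared between transcripts.

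Pdzk1ip1 (Entrez gene 67182) encodes MAP17, a small membrane protein that binds PDZ-domain scaffolds. It read log2 10.48 and 10.44 in CD34-Flt3-, 8.85 and 8.50 in CD34+Flt3- and 6.34 and 6.13 in CD34+Flt3hi cells, in linear units 1431 and 1393, 462 and 362, and 81.2 and 69.9. Its arrays fell into 3 well separated levels. It was called at both steps: it fell by 1.79 ± 0.25 (SE) in the first, 3.45-fold (limma adjusted p = 0.0142), and by 2.44 ± 0.25 (SE) in the second, 5.43-fold (limma adjusted p = 0.00256). From end to end it fell 18.7-fold, the 16th largest of all falls (limma adjusted p = 0.000102). The second-step call was lost without CD34+Flt3- replicate 1 (limma adjusted p = 0.0577) or CD34+Flt3hi replicate 2 (0.063), and the first-step call without either CD34+Flt3hi array (0.0502 and 0.0511). By the same annotation its neighbour is Tal1, a transcription factor gene of blood stem cells, which fell by 2.34 over the path (limma adjusted p = 0.00454) and was called in neither step.

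Trpc6 (Entrez gene 22068) encodes a cation channel opened by diacylglycerol that lets calcium into the cell. It read log2 8.01 and 8.11 in CD34-Flt3-, 5.73 and 5.23 in CD34+Flt3- and 3.43 and 3.56 in CD34+Flt3hi cells, in linear units 258 and 277, 52.9 and 37.4, and 10.7 and 11.8. It went from a clear signal to below background. Trpc6 fell by 2.59 ± 0.28 (SE) in the first step, 6.0-fold, the 14th largest fall (limma adjusted p = 0.00656). In the second it fell by 1.98 ± 0.28 (SE), at least 1.97-fold (limma adjusted p = 0.0135). Over the path it fell by 4.57, at least 11.8-fold (limma adjusted p = 0.000102). The second-step test used log2 values as read, with the CD34+Flt3hi arrays below background. The second-step call was lost when CD34+Flt3- replicate 1 or CD34+Flt3hi replicate 1 or 2 was left out, with differences of -1.73, -1.92 and -2.05. Of its neighbours in the annotation, Pgr, the progesterone receptor gene, differed by -1.97 in the first step (limma adjusted p = 0.0215) with its CD34+Flt3- mean of 4.33 below background, which makes that difference no exact size, and Cep126 was not called.

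Cd27 (Entrez gene 21940) encodes a receptor of the tumour necrosis factor family that binds CD70 and is found on multipotent and lymphoid progenitors. It read log2 8.80 and 8.67 in CD34-Flt3-, 9.35 and 9.90 in CD34+Flt3- and 9.94 and 10.02 in CD34+Flt3hi cells, so it was well above background in every fraction. It rose 2.37-fold across the path (limma adjusted p = 0.0151), with differences of 0.89 (95% confidence interval 0.34 to 1.43; limma adjusted p = 0.101) in the first step and 0.36 (-0.19 to 0.90; limma adjusted p = 0.909) in the second. With the title code as a fixed replicate block its first-step rise was called (limma adjusted p = 0.00883), with the code as a random block it was not (0.0746), and without either CD34+Flt3hi array its call over the path was lost (limma adjusted p = 0.161 and 0.188).

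Cd9 (Entrez gene 12527) encodes a tetraspanin that organises other proteins in the membrane and is abundant on platelets and megakaryocytes. It read log2 8.11 and 7.11 in CD34-Flt3-, 7.80 and 7.13 in CD34+Flt3- and 6.08 and 6.18 in CD34+Flt3hi cells, in linear units 276 and 138, 222 and 140, and 67.5 and 72.7. The first 2 groups overlapped, the SD between replicates was 0.71, 0.47 and 0.08 in the 3 groups, and the CD34+Flt3hi arrays were lowest. The first-step difference was -0.15 (95% confidence interval -0.98 to 0.68; limma adjusted p = 0.885), and the second -1.33 (-2.16 to -0.50; limma adjusted p = 0.26). Over the path Cd9 fell 2.79-fold (limma adjusted p = 0.0455), a call lost in 10 of 20 alternative settings, with adjusted p up to 0.309. Its second-step fall was called in 6 of 20 settings, among them the title code as a fixed replicate block (limma adjusted p = 0.00119) and a fit of the arrays compared alone (0.0384), but not with the code as a random block (0.172). Next to it in the annotation lies Vwf, the von Willebrand factor gene, which differed by -4.06 in the first step (limma adjusted p = 0.0197), from -5.42 to -2.70 as each array was left out, with an SD of 1.93 between the CD34+Flt3- arrays. That call was lost without CD34+Flt3- replicate 2 or either CD34+Flt3hi array, and the difference between Vwf and Cd9 was not tested.

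**Figure D3:**
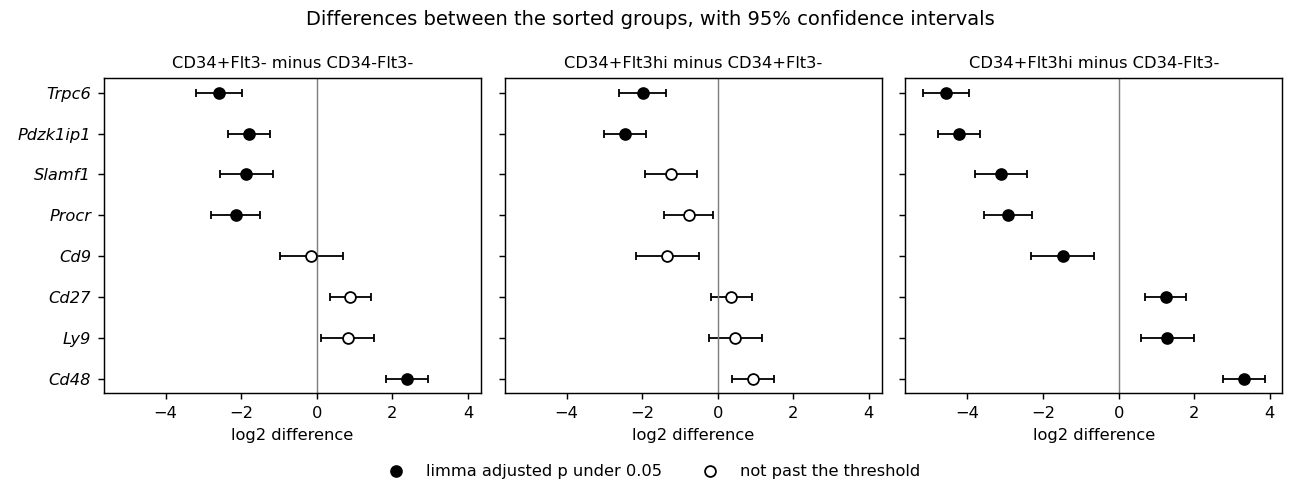
Log2 difference of each marker gene in the 3 comparisons, with points for limma estimates and lines for 95% confidence intervals, filled where the adjusted p is below 0.05. Intervals of Cd48 and of the 4 steepest fallers lie far from 0 in the first step, and the second-step intervals of Pdzk1ip1 and Trpc6 lie far below 0.

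Whether a member changed more in the second step than in the first was tested directly. None of the 8 passed (limma adjusted p from 0.405 for Cd48 to 0.873 for Ly9), and 2 had an unadjusted p below 0.05: Cd48, whose difference between steps was -1.46, and Procr, with 1.38. Among all genes 5, or 0.0275%, were called, and 1691 had an unadjusted p below 0.05. A member called in 1 step and not in the other is therefore not shown to differ between them.

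All 5 first-step calls were lost when CD34+Flt3- replicate 2 was left out (limma adjusted p = 0.264 for Slamf1, 0.202 for Procr, 0.129 for Cd48, 0.202 for Pdzk1ip1 and 0.142 for Trpc6), a fit in which 0 of all genes were called and 1569 had an unadjusted p below 0.05. Within the arrays sharing the title code of replicate 2, the first-step differences were -2.26 for Procr, -2.19 for Slamf1, 2.49 for Cd48, -1.94 for Pdzk1ip1 and -2.89 for Trpc6. In the second step the same code gave -2.37 for Pdzk1ip1 and -1.67 for Trpc6, and the code of replicate 1 gave -2.51 and -2.30. The path calls of Procr, Slamf1, Cd48, Pdzk1ip1 and Trpc6 held in all 20 alternative settings, with adjusted p of at most 0.0117.

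Slamf1 and Pdzk1ip1 have further probe sets. The other Slamf1 probe sets were dim: the first of them read log2 5.11 and 4.66 in CD34-Flt3- and 3.76 and 3.69 in CD34+Flt3hi cells, a path difference of -1.15 that was called among all probe sets (limma adjusted p = 0.0229). The last read 5.39 and 4.89 against 3.92 and 4.46, a difference of -0.95 that was not (limma adjusted p = 0.125). The other Pdzk1ip1 probe set read 9.85 and 10.19, 8.63 and 7.80, and 6.67 and 6.62, and differed by -1.80 (limma adjusted p = 0.0319), -1.57 (0.107) and -3.37 (0.000635) in the first step, the second and the path. Every probe set of the 2 genes had the same sign over the path. The dim Slamf1 probe sets had CD34+Flt3hi means of 3.73 and 4.19, below background, so the size of their differences is not exact.

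**Figure D4:**
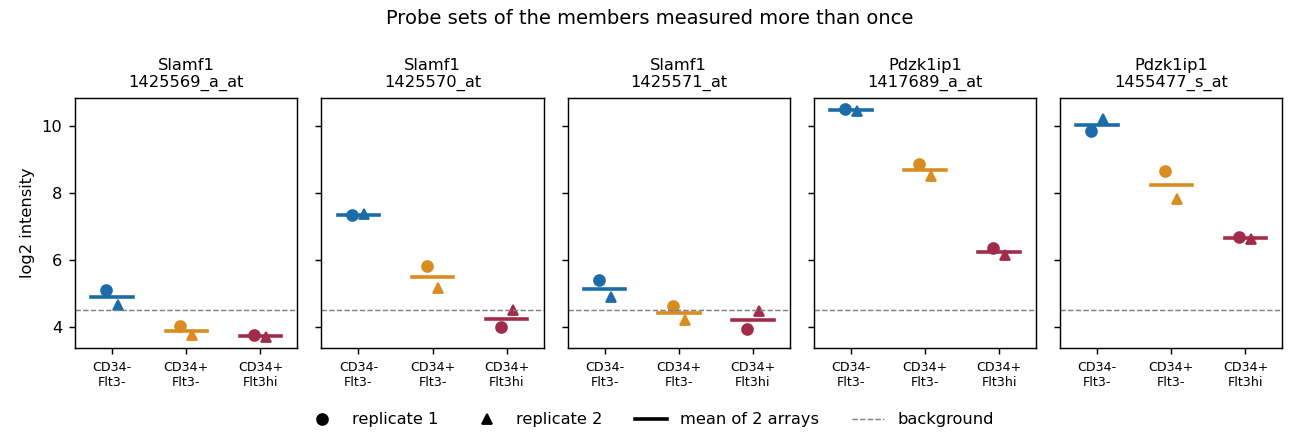
Log2 intensities of all probe sets of Slamf1 (3) and Pdzk1ip1 (2) on each array, with groups on the horizontal axis and the background as a dashed line. The 2 dim Slamf1 probe sets start near 5 in CD34-Flt3- cells and reach background, and both Pdzk1ip1 probe sets fall in step.

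Of other surface markers of stem cell enriched fractions 21 were measured, and some of them fell. In the first step 4 were called, all lower: Jam2 and Robo4, adhesion and guidance receptors, the integrin chain Itgb3, and Ctsf, a lysosomal protease that the list holds although it is no surface protein. In the second step 4 others were lower, Esam, Itga2b, Tie1 and Thy1. Over the path 12 fell, 0 rose and 9 were not called, with a list median of -1.35 against -0.07 for all genes. Among all genes 1.33%, 0.225% and 3.5% were called lower in the first step, the second and the path. This list and those below were chosen with earlier results of these data known, so their counts and medians are a description. Esam, an endothelial adhesion molecule, read 9.58 and 9.38, 8.29 and 8.64, and 5.94 and 6.12, and fell by 2.44 in the second step (limma adjusted p = 0.00312) and 11-fold over the path (limma adjusted p = 0.000161). Like Pdzk1ip1 it had its lowest arrays in CD34+Flt3hi cells, but its first-step difference of -1.02 was not called (limma adjusted p = 0.0848). Jam2 fell by 1.75 in the first step (limma adjusted p = 0.0176) to below background. The path count was 7 without CD34+Flt3hi replicate 1 and 5 without replicate 2. The first-step count was 0 without CD34+Flt3- replicate 2 or either CD34+Flt3hi array, and the second-step count was 1, 1 and 0 without CD34+Flt3- replicate 1 and without CD34+Flt3hi replicates 1 and 2.

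**Figure D5:**
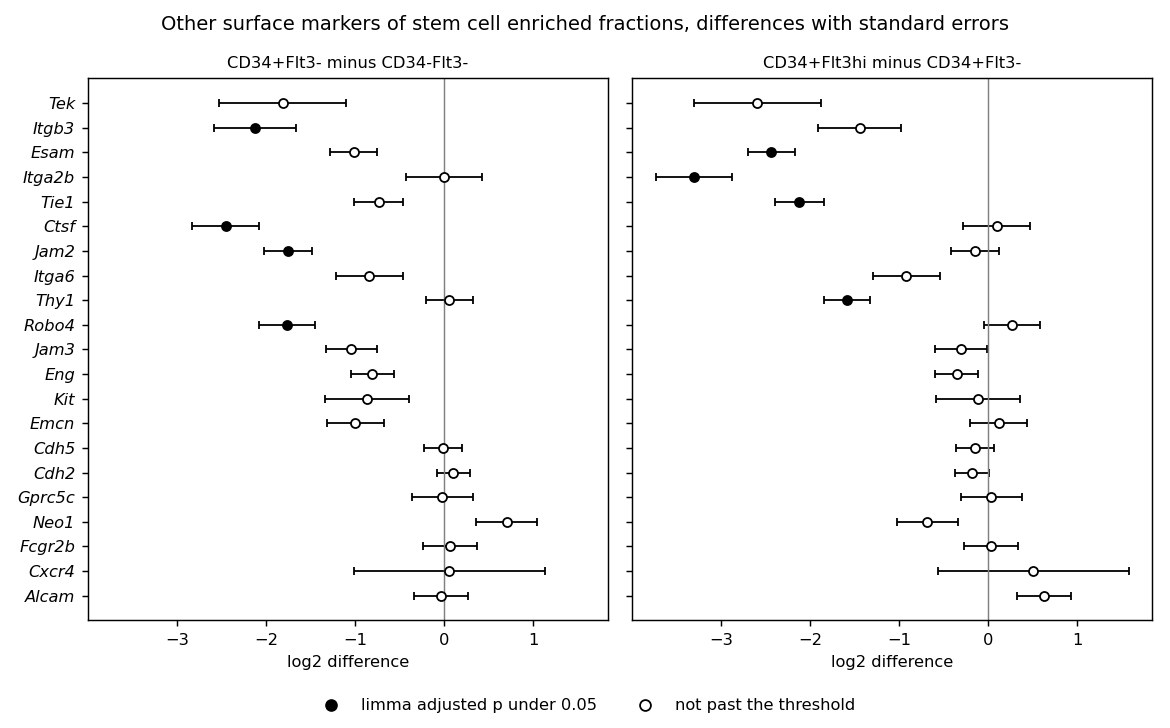
Log2 differences, with SE bars, of the 21 other stem cell surface markers in the first and the second step, filled where the adjusted p is below 0.05. Points lie mostly left of 0, with Ctsf and Itgb3 lowest among first-step calls and Itga2b, Esam and Tie1 among second-step calls.

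Of surface markers of multipotent and lineage-restricted progenitors 15 were measured. In the 2 steps and over the path 1, 2 and 8 of them rose, 0 fell and the others were not called, with medians of 0.49, 0.92 and 1.45. Among all genes 0.77%, 0.385% and 2.62% were called higher, and the medians were -0.10, 0.03 and -0.07. Cd34 and Flt3 were sort antigens and are no independent result, but the counts and medians of the list include both. Cd34 was the only first-step call, and the second-step calls were Flt3 and Csf1r. The path calls hold both sort antigens and Cd244a, which is also in the SLAM list. Csf1r, the receptor of macrophage colony-stimulating factor, rose by 3.16 over the path (limma adjusted p = 0.00117), Cd52 by 3.38 (limma adjusted p = 0.00498) and Cd93 by 1.54 (limma adjusted p = 0.00121). The path call of Cd52 was lost without CD34+Flt3hi replicate 2, with differences from 2.96 to 3.79 as each array was left out. Those of Csf1r and Cd93 held in all 20 alternative settings. The first-step count was 0 on leaving out any array of CD34+Flt3- or CD34+Flt3hi and 4 without CD34-Flt3- replicate 2. The second-step count was 0 or 1 on leaving out any array of these groups and 7 and 6 without CD34-Flt3- replicates 1 and 2.

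The other genes of each member's pathway were counted list by list. Of 13 other genes of the protein C pathway, 0, 1 and 2 fell in the first step, the second and the path, and 0 rose. They were the thrombin receptor gene F2r, at 10.05 and 10.15, 10.52 and 9.85, and 8.47 and 8.87, which fell by 1.52 in the second step (limma adjusted p = 0.0444), and Pros1, the protein C cofactor, which fell by 1.96 over the path (limma adjusted p = 0.0139). Thbd, encoding the thrombomodulin that works with EPCR, had a path difference of -0.43 (limma adjusted p = 0.526). The second-step call of F2r was lost on leaving out any array of the groups compared, and both path calls were lost without CD34+Flt3hi replicate 2.

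Of 11 other SLAM family and adaptor genes 1 passed, Cd244a over the path, and the phosphatase genes downstream of these receptors, Inpp5d, Ptpn6 and Ptpn11, had path differences of 0.19, -0.37 and -0.12, none of them called. The SLAM adaptor gene Sh2d1a was below background on every array. Of 21 tetraspanins and Cd9 partners, Cd53 stood out by its values: it read 6.52 and 7.05, 8.22 and 8.73, and 10.80 and 10.31, and rose by 1.69 (limma adjusted p = 0.0273), by 2.08 (0.0158) and over the path 13.7-fold (0.000162). Cd9 and Cd53, both tetraspanins, ran in opposite directions. Tspan2 rose by 2.00 in the second step (limma adjusted p = 0.0134), Cd82 fell by 1.32 in the first (limma adjusted p = 0.0343) and Tspan4 fell by 0.92 over the path (limma adjusted p = 0.0195). The path call of Tspan4 was lost without either CD34+Flt3hi array. The step calls of Cd53, Tspan2 and Cd82 were each lost on leaving out any CD34+Flt3- or CD34+Flt3hi array, and the path call of Cd53 held in all 20 settings.

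Among 8 other genes of CD27 signalling Birc2, an inhibitor of apoptosis, fell by 1.04 over the path (limma adjusted p = 0.0382), and the call was lost without CD34-Flt3- replicate 2, CD34+Flt3- replicate 2 or either CD34+Flt3hi array. The ligand gene Cd70 was below background on all arrays. None of 6 Pdzk1ip1 partners and none of 10 other TRPC and store-operated calcium entry genes was called in any comparison. Of these, the calcium sensor gene Stim1 was well above background, at 8.14 and 8.03, 7.71 and 7.43, and 7.48 and 7.28, with a path difference of -0.70 (limma adjusted p = 0.173). Trpc1 and Trpc5, channel genes related to Trpc6, were below background on all arrays.

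Some markers of other cell types were also lower where Procr, Slamf1, Pdzk1ip1 and Trpc6 were. Of 12 endothelial markers 9 or 10 were above background in each group, and their summed level was 3089 to 3666 linear units in CD34-Flt3-, 1020 to 1206 in CD34+Flt3- and 1114 to 1351 in CD34+Flt3hi cells. Of them 4 fell over the path, Vwf (at least 87.5-fold), Tek, Tie1 and Kdr, while Cdh5, the defining cadherin of vessels, was below background on all arrays. Tek and Tie1 are also in the list of stem cell markers. Of 10 megakaryocyte and platelet markers 9, 9 and 6 were above background in the 3 groups, none was below it on every array, and the sums were 3704 to 3848, 1313 to 2690 and 399 to 492. Of these, 5 fell over the path: Vwf, Itga2b, Pf4, Gp9 and Gp1bb. In the first step only Vwf of this list was called, and the list median was 0.005. In the second step 2 were called, Itga2b and Pf4, both lower, with a list median of -1.33. Vwf is counted in both the endothelial and the megakaryocyte list, with mean log2 values of 10.95, 6.89 and 3.98 in the same order of groups. It therefore makes up a large part of both sums in the first group, and sums without it were not taken. The fall of these sums is no measure of either list as a whole. As each array was left out, the path falls ran from 2 to 4 for the endothelial and from 3 to 6 for the megakaryocyte list.

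The sum of 7 erythroid markers was 1111 to 6622 in CD34-Flt3-, 248 to 591 in CD34+Flt3- and 222 to 228 in CD34+Flt3hi cells, and Car1, Klf1 and Ermap were called lower over the path. Without either CD34+Flt3hi array 1 of them was called, Car1, and Klf1 was also lost without CD34-Flt3- replicate 1, with differences from -4.43 to -1.96 as each array was left out. Car1 read 11.98 and 9.19, Klf1 9.92 and 7.46 and Ermap 10.36 and 7.45 on the CD34-Flt3- arrays, higher in replicate 1, as Cd9 was. With CD34-Flt3- replicate 1 left out, the first-step difference of Cd9 was 0.35. Beside the genes that rose, 3 of 11 monocyte, macrophage and neutrophil markers rose over the path (Csf1r, Mpeg1 and Cd68), the call of Cd68 being lost in 8 of 20 settings. In the 3 groups 6, 7 and 7 of these markers were above background, with sums of 1328 to 1374, 1392 to 1483 and 1700 to 2181, and Itgam, S100a8 and Ltf were below it on all arrays. Of the 9 B markers none was called, and of the 10 T and NK markers Nkg7 rose in the first step and over the path. As each array was left out its differences ran from 1.86 to 2.45 and from 1.31 to 1.90. Its first-step call was lost without CD34+Flt3- replicate 2, and its path call without either CD34+Flt3hi array. The T and NK sums were 466 to 644, 1421 to 1483 and 1031 to 1048, with Cd3g and Cd2 below background on all arrays. Of the remaining marker lists, 1 dendritic marker, the sort antigen Flt3, rose over the path. Cpa3 of the 7 mast cell and basophil markers fell over the path. The mast cell and basophil sums were highest in CD34+Flt3- cells, at 357 to 379, 622 to 748 and 246 to 334. Ms4a2 was called higher in the first step, and Ms4a2 and Cpa3 lower in the second. The Ms4a2 calls were lost in 11 and 5 of 19 settings. With each array left out, Cpa3 differed by -4.42 to -3.67 in the second step and -3.42 to -2.67 over the path. Of the 8 stromal and bone markers Pdgfrb rose and Col1a2 fell over the path. The part of any of these in the members' differences was not tested.

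The genes most like each member were ranked by Pearson's r over the 6 arrays among 12530 genes, as a description: the arrays form 3 groups, and with so many candidates high values are common. Nearest Procr were Tbxas1 and Gda (r = 0.998 each), nearest Slamf1 Rhof (0.999) and Trim47 (0.997), and nearest Trpc6 Pheta2 (0.997) and Nfe2 (0.996). Pdzk1ip1 ran closest to Gfi1b (0.997), a transcription factor gene of megakaryocyte and erythroid cells, and Cd9 to Gata1 (0.999), the erythroid and megakaryocyte factor. For the members that rose, Tespa1, Rfx1 and Kif24 (0.996 each) were nearest Cd48, Fut7 (0.993) nearest Ly9 and Slc43a3 (0.996) nearest Cd27. Pearson's r takes no account of size: Rfx1 differed by 0.44 over the path and was not called (limma adjusted p = 0.412).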

How the data were processed

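LSK fractions were read on 6 expression arrays, 2 a group. Per the submitters' processing notes the authors used RMA, without a version. The deposited intensity values, 6.50 to 24173, were taken as linear, an inference from their range, and log2 was tested. The genome build is not given in the sources used here. The table held 45101 probe sets. Of these 64 were controls, 932 had several symbols and 9160 none, and 99.4% of gene identifiers matched RefSeq. Each gene was read from its brightest probe set (9010 of 18193 genes had several). Background was the 90th percentile of 27 unspiked bacterial control probe sets, 22.6 in linear units. Below it lay 26.7% of genes.

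For the tests, limma 3.58.1 (R 4.3.3) took the 3 group means over 6 arrays, with variances moderated along an intensity trend (3 residual and 6.86 prior degrees of freedom). Two-sided p-values were Benjamini-Hochberg adjusted across 18193 genes and called below 0.05; the 95% intervals are per gene and unadjusted. With 2 arrays a group an exact permutation p cannot go below 0.333. The pipeline was tested on simulated data. Alternatives were other normalizations, filters, probe set rules, priors, arrays and thresholds, the title code as a replicate block, and each array left out. A block of the replicate 2 code against the others was chosen after seeing the data. The members and 17 lists were chosen with earlier results of these data known. The plan was to name the members, the 3 genes nearest each of them, and the called genes of each list. Where over 6 passed it took the 6 with the smallest adjusted p, and where none passed up to 2 with the highest mean. Not all of these are given, and some others, uncalled genes among them, were named after their values were seen. Deviations from group means correlated at 0.313, 0.0658 and 0.0575 between groups sharing a code. Plots used matplotlib 3.10.9 (Python 3.11.15).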

Additional observations from a re-analysis of the deposited data

How the results depend on the processing

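Of the members called, 5 in the first step, 2 in the second and 8 over the path, the counts ran from 0 to 5, from 0 to 3 and from 5 to 8 as each array was left out, and from 4 to 6, from 2 to 5 and from 6 to 8 under the 14 other settings. The first-step count was 0 without CD34+Flt3- replicate 2 and 3 without either CD34+Flt3hi array. With the title code as a fixed replicate block 5 were called in the second step, adding Slamf1 (limma adjusted p = 0.00482), Cd48 (0.01) and Cd9 (0.00119). In that fit 670 of 18193 genes were called in the second step, against 111 in the main fit. With the code as a random block 2 members and 133 of all genes were called in that step. The fixed block fits the lone code of CD34-Flt3- replicate 1 exactly. In no setting was a member called for the difference between the steps. Over all genes the counts ran from 0 to 983, from 18 to 300, from 271 to 1918 and from 1 to 118 as arrays were left out, and from 47 to 1579, from 69 to 670, from 892 to 2360 and from 4 to 560 otherwise, in the order first step, second step, path and their difference.

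Of 632 values of single members, 7 changed sign. The first-step difference of Cd9 was 0.21 with the fixed replicate block, -0.13 with the random block and 0.052 after repeated quantile normalization, and ran from -0.65 to 0.35 as arrays were left out. The differences between the steps that changed sign ran from -0.014 to 1.25 for Slamf1, from -0.72 to 0.0020 for Ly9 and from -1.08 to 0.020 for Cd27, all at their turn without CD34+Flt3- replicate 2. The cause was not tested. Pairs of arrays and signals near background limit precision, above all for Slamf1 and Trpc6 in CD34+Flt3hi cells. Groups of 2 arrays allow no test for an outlying array.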
